A study of Homo sapiens with 8 samples.

Results

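Integrins are the cell-surface receptors through which cells hold the extracellular matrix, and 10 integrin genes, 8 alpha and 2 beta chains, were followed here in human neuroblastoma cells that had been given media conditioned by embryonic ganglia. The members were chosen by symbol: ITGA3 and ITGA6, whose chains bind laminin; ITGA5 and ITGAV, which bind the RGD motif of fibronectin, vitronectin and related proteins; ITGA1 and ITGA2, which bind collagen; ITGA4 and ITGA9, which bind VCAM1, alternatively spliced fibronectin and tenascin-C; and the beta chains ITGB1 and ITGB5. All 10 had a row among the 60676 Ensembl identifiers of the count table, and all 10 passed the filter on low counts, as did 16680 genes in all.

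An integrin works as a pair of 1 alpha and 1 beta chain. Beta1 pairs with all of the alpha chains listed above, whereas beta5 pairs with alphaV alone, so the alpha chain made largely sets which matrix protein a beta1 integrin holds. Talin and kindlin bind the beta tail inside the cell and switch the pair to its adhesive state, and paxillin, zyxin, tensins and parvins join the adhesion plaque that forms on it. In the neural crest, from which the sympathetic ganglia and neuroblastoma arise, integrins carry migrating cells over fibronectin and laminin.

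The cells were IGR-N91, an established line from a human metastatic (stage 4) neuroblastoma, grown as aggregates in hanging drops. The 4 groups of 2 libraries each were control medium, which had held no tissue, and media conditioned by chick sympathetic ganglia of embryonic day 8 (E8-cSGcm), by chick dorsal root ganglia of the same stage (E8-cDRGcm) and by mouse sympathetic ganglia of stage E15.5 (E15.5-mSGcm); the sample labels write GS where these names have SG. All groups shared the line, the hanging drops and the basal medium. The labels give an exposure of 20 h and the series' design text 24 h. The question was which transcripts each medium changes against control. The model is 1 line, and media made from 2 species and 2 ages differ in more than the ganglion. The study describes the 2 libraries of a group as duplicates, without saying whether they came from separate cultures, so the p-values measure the spread between these libraries, which may be technical.

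Library totals ran from 12286211 to 15060744 counts in the control and chick groups, and were 7930765 and 8937397 in E15.5-mSGcm. Of 7 noradrenergic neuroblast markers, 6 were detected in every group and CHGA was at 0 counts in all libraries; their summed level was 1219 and 1205 CPM in control, 986 and 1067 in E8-cSGcm, 1021 and 1006 in E8-cDRGcm, and 892 and 868 in E15.5-mSGcm. CPM here is a gene's count scaled to a common library size over tested genes (TMM). Schwann and satellite glia markers summed to at most 1.04 CPM, with SOX10 and FABP7 at 0; endothelial markers summed to at most 1.07 CPM, with CDH5 at 0; and leukocyte markers to at most 1.15 CPM, with CD3E at 0. The 6 fibroblast and mesenchyme markers, all detected in control as well, summed to 413 and 425 CPM in control and to 431 to 473 CPM in the conditioned media. In E15.5-mSGcm, DCN, LUM and PDGFRA were higher than control and COL1A1 lower. In E8-cDRGcm, DCN was lower, at 1.35 and 2.05 CPM beside 2.75 and 2.76 in control. The part of these markers in the integrin values of either medium was not tested. In such bulk samples, fewer cells of a type and less RNA per cell cannot be told apart. Whether an exact 0, here or below, marks absent expression was not tested. ACTN4, on the adhesion plaque list, was also at 0 counts in all libraries, beside 4515 and 5171 counts of ACTN1 in control.

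The promoter windows of 3 members are shown because these genes carry the main contrasts below: ITGA5 and ITGA6, which rose in the chick media, and ITGA1, which rose in the mouse medium. Each holds 250 bases before and 50 after a transcription start on the gene's strand, from RefSeq on GRCh38.p14. They lie at chr12:54419217-54419516 on the minus strand (ITGA5), chr2:172427336-172427635 on the plus strand (ITGA6, the second of 2 windows) and chr5:52787666-52787965 on the plus strand (ITGA1). Capitals mark matches to the AP-1 motif TGANTCA, searched on both strands.
ITGA5: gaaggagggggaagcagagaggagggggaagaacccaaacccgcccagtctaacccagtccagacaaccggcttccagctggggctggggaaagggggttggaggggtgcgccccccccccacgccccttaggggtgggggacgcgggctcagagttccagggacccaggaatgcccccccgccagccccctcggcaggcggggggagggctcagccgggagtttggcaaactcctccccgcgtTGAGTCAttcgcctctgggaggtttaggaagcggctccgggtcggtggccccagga
ITGA6: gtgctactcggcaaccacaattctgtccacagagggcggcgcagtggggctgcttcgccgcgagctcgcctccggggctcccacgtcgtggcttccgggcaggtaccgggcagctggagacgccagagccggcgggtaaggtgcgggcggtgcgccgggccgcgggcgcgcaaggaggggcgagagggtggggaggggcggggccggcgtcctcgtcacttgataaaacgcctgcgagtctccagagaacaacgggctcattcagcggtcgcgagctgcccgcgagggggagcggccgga
ITGA1: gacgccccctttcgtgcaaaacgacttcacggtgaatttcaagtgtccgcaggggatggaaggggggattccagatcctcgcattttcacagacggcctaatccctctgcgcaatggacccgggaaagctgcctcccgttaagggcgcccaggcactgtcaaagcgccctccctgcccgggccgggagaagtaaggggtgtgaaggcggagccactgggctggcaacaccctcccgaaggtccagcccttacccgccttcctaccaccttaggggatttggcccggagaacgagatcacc
The ITGA5 window held 1 AP-1 match, from base -6 to base 1 counted from the start, and it was the only one of the 13 windows of members to hold one. Of all 35116 windows of this length, 7.71% held one. The GC box GGGCGG was present once in the ITGA5 window and 3 times in the ITGA6 window, against 45% of all windows. A kappaB match lay in the windows of ITGA5, ITGA1 and the second ITGB1 start, against 11.3% of all windows, and no member held a CArG box, which 1.29% of all windows did. A match is a description of letters. Windows were found for 8 members, and ITGA3 and ITGA9 had none in the table used.

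Against control, ITGA3, ITGA5 and ITGA6 rose in both chick media, ITGA1 and ITGAV rose in the mouse medium, and ITGA9 fell in all 3. In E8-cSGcm, 3 of 10 members were called higher where 4.73% of all tested genes were, and 1 was called lower against 3.86%. In E8-cDRGcm, 3 were called higher, against 9.81% of all genes, and 2 lower (ITGA9 and ITGB5), against 10.9%. In E15.5-mSGcm, 2 were called higher, against 6.65% of all genes, and 2 lower (ITGA6 and ITGA9), against 7.27%. Calls required both a 1.5-fold difference and, in edgeR's quasi-likelihood test, an adjusted p below 0.05. By the adjusted p alone, 8, 9 and 6 of the 10 members passed in the 3 media, beside 31.3%, 49.5% and 37.8% of all genes. The median log2 fold change over the members was 0.12, 0.22 and -0.12, where that of all tested genes was 0.01, 0.01 and -0.02. Both libraries of a medium lay beyond both controls for 8, 9 and 9 of the 10 members in the 3 media. The same held for 63.6%, 73.5% and 68.3% of all tested genes, so such separation was common. Between media it held for 62.3% to 74.9% of all tested genes. The 3 comparisons share the same control libraries.

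**Figure D1:**
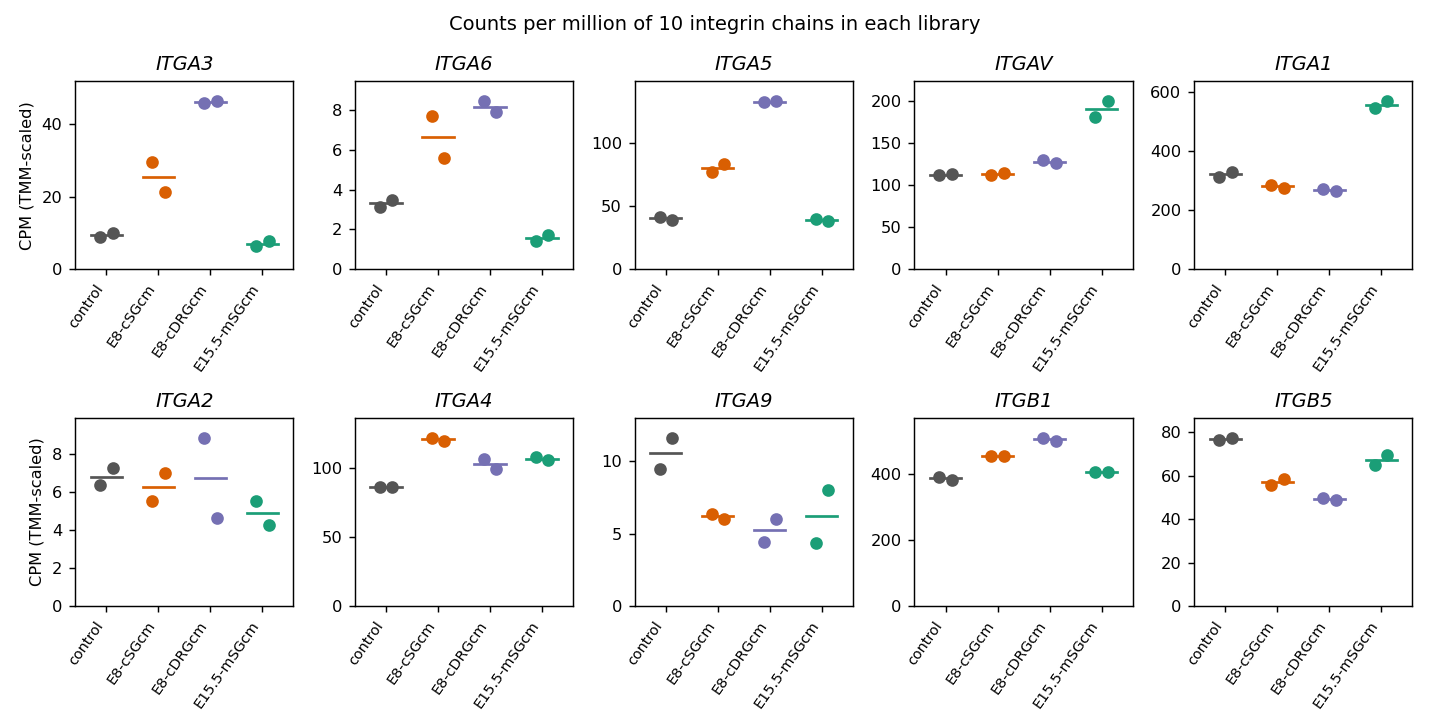
Level of each chain in each library, in CPM scaled by TMM on axes that start at 0, with 1 point per library and a bar at the mean of the 2 libraries of each group. ITGA3, ITGA5 and ITGA6 are highest in E8-cDRGcm, and ITGA1 and ITGAV in E15.5-mSGcm, where both libraries of ITGA1 exceed 500 CPM.

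The laminin-binding chains rose in both chick media. Gene coordinates below are those of RefSeq on GRCh38.p14. ITGA3 (ENSG00000005884, chr17:50056110-50090481), the alpha3 chain, had 117 and 150 counts in control (8.95 and 9.86 CPM), 368 and 303 in E8-cSGcm (29.5 and 21.2 CPM), 612 and 632 in E8-cDRGcm (45.8 and 46.3 CPM), and 49 and 67 in E15.5-mSGcm (6.28 and 7.65 CPM). The 4 groups did not overlap, and the mouse medium gave the lowest values. Against control, ITGA3 was 2.67-fold higher in E8-cSGcm (log2 fold change 1.42, SE 0.131, adjusted p = 4.00e-10) and 4.88-fold higher in E8-cDRGcm (2.29, SE 0.12, adjusted p = 1.09e-16). In E15.5-mSGcm its log2 fold change of -0.43 (SE 0.189) had an adjusted p of 0.0725 and was not called. The 2 E8-cSGcm libraries differed more from each other than those of the other groups.

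ITGA6 (ENSG00000091409, chr2:172427336-172506459), whose chain pairs with beta1 or with beta4 and binds laminin, was the lowest of the 10 in control. It had 41 and 53 counts there (3.13 and 3.49 CPM), 96 and 80 in E8-cSGcm (7.7 and 5.6 CPM), 113 and 108 in E8-cDRGcm (8.45 and 7.91 CPM), and 11 and 15 in E15.5-mSGcm (1.41 and 1.71 CPM). The chick values lay above and the mouse values below both controls. ITGA6 rose 1.98-fold in E8-cSGcm (log2 fold change 0.99, SE 0.206, adjusted p = 2.70e-04) and 2.46-fold in E8-cDRGcm (1.30, SE 0.198, adjusted p = 9.40e-07), and fell 2.11-fold in E15.5-mSGcm (-1.08, SE 0.317, adjusted p = 0.00669). The fall rests on few counts: without E15.5-mSGcm replicate 1 it was -0.96 with an adjusted p of 0.0658, while with every library thinned to 7930765 counts it was -1.05 with an adjusted p of 0.0201.

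Of the RGD-binding chains, ITGA5 moved in the chick media and ITGAV in the mouse medium. ITGA5 (ENSG00000161638, chr12:54395261-54419266), the alpha chain of the classical fibronectin receptor, had 540 and 595 counts in control (41.3 and 39.1 CPM), 959 and 1191 in E8-cSGcm (76.9 and 83.4 CPM), 1768 and 1818 in E8-cDRGcm (132 and 133 CPM), and 311 and 335 in E15.5-mSGcm (39.8 and 38.3 CPM). The mouse medium overlapped control, and the chick media stood apart from it and from each other. ITGA5 rose 2-fold in E8-cSGcm (log2 fold change 1.00, SE 0.0678, adjusted p = 2.14e-14) and 3.3-fold in E8-cDRGcm (1.72, SE 0.065, adjusted p = 1.23e-22). In E15.5-mSGcm the difference from control was -0.04, with a 95% confidence interval from -0.20 to 0.12 (adjusted p = 0.73).

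ITGAV (ENSG00000138448, chr2:186590056-186680901), the alpha chain of the vitronectin receptors, had 1468 and 1721 counts in control (112 and 113 CPM), 1401 and 1626 in E8-cSGcm (112 and 114 CPM), 1740 and 1717 in E8-cDRGcm (130 and 126 CPM), and 1412 and 1751 in E15.5-mSGcm (181 and 200 CPM). E8-cSGcm overlapped control, E8-cDRGcm lay slightly above it, and E15.5-mSGcm well above. ITGAV rose 1.69-fold in E15.5-mSGcm (log2 fold change 0.76, SE 0.0569, adjusted p = 1.53e-13). Its difference was 0.18 in E8-cDRGcm (SE 0.0564, adjusted p = 0.00694), below the fold threshold, and 0.00 in E8-cSGcm (95% confidence interval -0.11 to 0.12, adjusted p = 0.963). ITGAV has the lowest GC content of the 10 members, 33.5% of its longest transcript. With GC content and length fitted in each library, its value in E15.5-mSGcm was 0.49 (adjusted p = 1.02e-09), under the fold threshold.

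Of the collagen-binding chains, ITGA1 rose in the mouse medium. ITGA1 (ENSG00000213949, chr5:52787916-52959209), which binds collagen IV and other collagens, had 4094 and 5018 counts in control (313 and 330 CPM), 3566 and 3941 in E8-cSGcm (286 and 276 CPM), 3646 and 3637 in E8-cDRGcm (273 and 266 CPM), and 4251 and 4977 in E15.5-mSGcm (545 and 569 CPM). Both chick groups lay below control and the mouse group above it, with no overlap. The rise in E15.5-mSGcm was 1.73-fold (log2 fold change 0.79, SE 0.0488, adjusted p = 5.95e-16). The differences in the chick media passed the adjusted p but not the fold threshold, at -0.20 in E8-cSGcm (SE 0.049, adjusted p = 0.00205) and -0.25 in E8-cDRGcm (SE 0.0491, adjusted p = 4.08e-05). With the GC content and length correction the mouse value was 0.59, still called. ITGA1 shares 13.2% of its exonic bases with other genes, among them PELO on the same strand, whose own log2 fold change in E15.5-mSGcm was 0.22 (adjusted p = 0.00704).

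ITGA2 (ENSG00000164171, chr5:52989352-53094779), the other collagen-binding chain and a neighbour of ITGA1, was weakly expressed and its libraries overlapped. It had 83 and 110 counts in control (6.35 and 7.23 CPM), 69 and 100 in E8-cSGcm (5.53 and 7 CPM), 118 and 63 in E8-cDRGcm (8.83 and 4.61 CPM), and 43 and 37 in E15.5-mSGcm (5.51 and 4.23 CPM). The 2 E8-cDRGcm libraries fell on either side of control. Only the mouse group lay below both controls, with a log2 fold change of -0.49 (95% confidence interval -1.03 to 0.05, adjusted p = 0.146). With GC content and length fitted in each library, ITGA2 was called lower there (-0.61, adjusted p = 0.0492). The chick values were -0.11 (95% confidence interval -0.57 to 0.35, adjusted p = 0.755) and -0.02 (-0.48 to 0.43, adjusted p = 0.942). Both intervals span no change, and these libraries do not decide among differences within them.

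The alpha4 family split. ITGA4 (ENSG00000115232, chr2:181457205-181538940), the VCAM1- and fibronectin-binding alpha4 chain, had 1130 and 1314 counts in control (both 86.4 CPM), 1518 and 1717 in E8-cSGcm (122 and 120 CPM), 1435 and 1360 in E8-cDRGcm (107 and 99.6 CPM), and 845 and 930 in E15.5-mSGcm (108 and 106 CPM). All 6 conditioned libraries lay above both controls. The differences passed the adjusted p but not the fold threshold, at 0.49 in E8-cSGcm (SE 0.0573, adjusted p = 1.79e-08), 0.26 in E8-cDRGcm (SE 0.058, adjusted p = 2.85e-04) and 0.31 in E15.5-mSGcm (SE 0.0608, adjusted p = 8.59e-05). ITGA4 shares 26.4% of its exonic bases with the antisense gene CERKL, which had 1 to 6 counts in the libraries.

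ITGA9 (ENSG00000144668, chr3:37452141-37823507), whose alpha9 chain binds tenascin-C, VCAM1 and osteopontin, was lower in all 3 media. The gene shares 9.23% of its exonic bases with ITGA9-AS1, which had 15 to 32 counts in a library. ITGA9 had 124 and 177 counts in control (9.48 and 11.6 CPM), 79 and 86 in E8-cSGcm (6.33 and 6.02 CPM), 59 and 82 in E8-cDRGcm (4.41 and 6.01 CPM), and 34 and 70 in E15.5-mSGcm (4.36 and 8 CPM). All 6 conditioned libraries lay below both controls, and those of E15.5-mSGcm were far apart from each other. ITGA9 fell 1.72-fold in E8-cSGcm (log2 fold change -0.78, SE 0.184, adjusted p = 0.00119), 2.03-fold in E8-cDRGcm (-1.02, SE 0.189, adjusted p = 2.79e-05) and 1.69-fold in E15.5-mSGcm (-0.76, SE 0.204, adjusted p = 0.00337). The call in E15.5-mSGcm was lost without E15.5-mSGcm replicate 1 (-0.41, adjusted p = 0.163) and without control replicate 2 (-0.61, adjusted p = 0.0558).

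Of the beta chains, ITGB5 was called in 1 medium and ITGB1 in none. ITGB1 (ENSG00000150093, chr10:32900318-32958230), the common partner, had 5129 and 5793 counts in control (392 and 381 CPM), 5654 and 6468 in E8-cSGcm (both 453 CPM), 6811 and 6822 in E8-cDRGcm (509 and 500 CPM), and 3180 and 3549 in E15.5-mSGcm (407 and 405 CPM). The groups did not overlap, and the order was control, E15.5-mSGcm, E8-cSGcm and E8-cDRGcm. Its log2 fold changes were 0.23 in E8-cSGcm (SE 0.0465, adjusted p = 1.88e-04) and 0.38 in E8-cDRGcm (SE 0.0464, adjusted p = 8.28e-09), both under the fold threshold, and 0.07 in E15.5-mSGcm (SE 0.0474, adjusted p = 0.241), where the GC content and length correction gave -0.10.

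ITGB5 (ENSG00000082781, chr3:124761948-124901418), the beta5 partner of alphaV, had 1003 and 1179 counts in control (76.7 and 77.5 CPM), 696 and 839 in E8-cSGcm (55.8 and 58.7 CPM), 665 and 668 in E8-cDRGcm (49.7 and 48.9 CPM), and 506 and 608 in E15.5-mSGcm (64.8 and 69.5 CPM). Every conditioned library lay below both controls, with no overlap between groups. ITGB5 fell 1.56-fold in E8-cDRGcm (log2 fold change -0.64, SE 0.0667, adjusted p = 2.51e-10). The values of -0.43 in E8-cSGcm (SE 0.0656, adjusted p = 2.68e-06) and -0.20 in E15.5-mSGcm (SE 0.0686, adjusted p = 0.0206) passed the adjusted p but not the fold threshold.

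**Figure D2:**
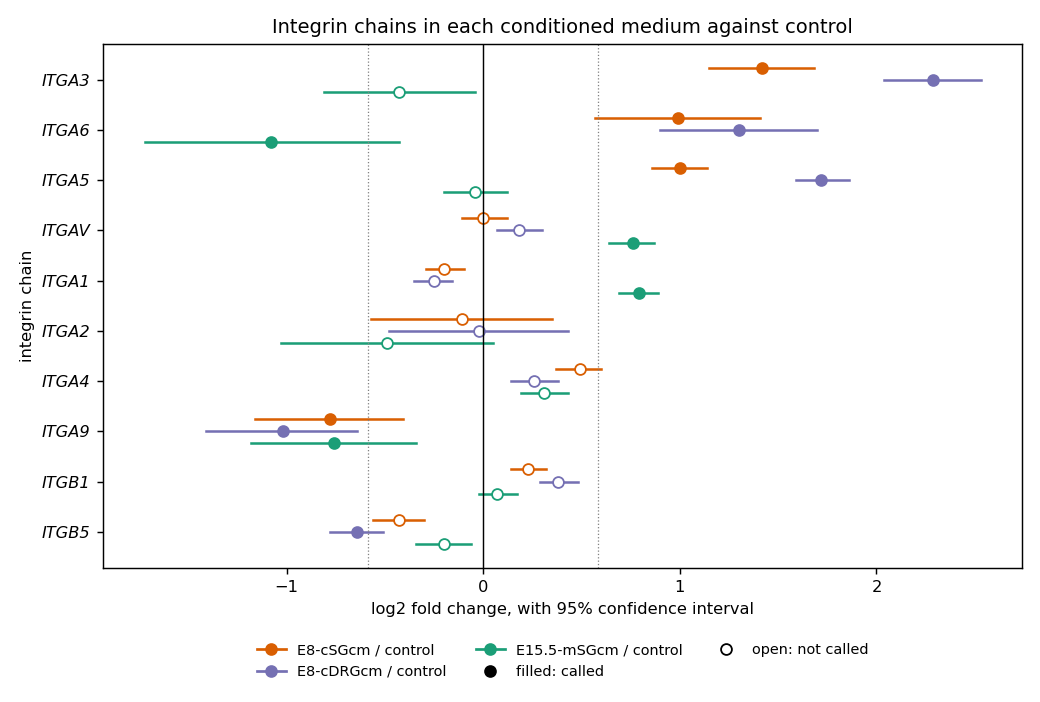
Log2 fold change of each chain in each conditioned medium against control, from edgeR, with 95% confidence intervals. Filled points were called, open points were not, and dotted lines mark a fold change of 1.5. ITGA3, ITGA5 and ITGA6 lie to the right in both chick media, ITGA1 and ITGAV in the mouse medium, and ITGA9 to the left in all 3.

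Set against each other per kilobase of exons, the chains covered a wide range of levels in control. ITGB1 stood first there at 26.5 ± 0.545 CPM per kilobase (SD, n = 2), followed by ITGA1 at 17.3 ± 0.647, ITGB5 at 11.8 ± 0.0914, ITGA4 at 8.11, ITGAV at 5.83 ± 0.034 and ITGA5 at 5.45 ± 0.207. The low chains were ITGA9 at 1.28 ± 0.185, ITGA3 at 0.959 ± 0.0662, ITGA2 at 0.86 ± 0.0795 and ITGA6 at 0.496 ± 0.0371, of which only ITGA3 and ITGA2 overlapped as neighbours. The order changed with the medium: ITGA5 was second only to ITGB1 in E8-cDRGcm, at 18 ± 0.0904 CPM per kilobase, and ITGA1 passed ITGB1 in E15.5-mSGcm, at 30 ± 0.914 against 27.9 ± 0.0948. Both places depend on the length used, since by coding length ITGA5 came after ITGA1, and ITGB1 came before ITGA1 by the longest transcript. In E8-cSGcm, ITGA4 at 11.4 ± 0.0987 and ITGA5 at 10.9 ± 0.623 overlapped as neighbours, and in E15.5-mSGcm ITGB5, ITGA4 and ITGAV did, at 10.3, 10.1 and 9.85.

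As a share of the 8 alpha chains per kilobase of exons, the collagen-binding pair made 45.1 ± 0.859% of the alpha transcripts in control (mean ± SD, n = 2 throughout), 33 ± 0.162% in E8-cSGcm, 27.4 ± 0.57% in E8-cDRGcm and 53.2 ± 0.145% in E15.5-mSGcm. The RGD-binding pair made 28 ± 1.01%, 34.6 ± 1.77%, 43.7 ± 0.716% and 26.3 ± 0.197% in the same order. By coding length the RGD-binding pair made 31.6% and the collagen-binding pair 42.4% in E8-cSGcm, the reverse of their order by exons. The laminin-binding pair made 3.61 ± 0.181% in control, 7.4 ± 1.62% and 10.5 ± 0.168% in the chick media, and 1.64 ± 0.181% in E15.5-mSGcm. The alpha4 family ran from 18.4 ± 0.314% in E8-cDRGcm to 25% in E8-cSGcm. Per kilobase, ITGA5 and ITGAV stood at a ratio of 0.934 ± 0.041 in control, 1.86 ± 0.0888 in E8-cSGcm, 2.72 ± 0.0791 in E8-cDRGcm and 0.539 ± 0.0536 in E15.5-mSGcm. In E8-cSGcm this ratio was 1.13 by the longest transcript and 0.729 by coding length. Which of these chains stood higher there thus depended on the length used. ITGB1 made 69.2 ± 0.602% of the 2 beta chains in control, 78 ± 0.636% in E8-cSGcm, 82.1 ± 0.03% in E8-cDRGcm and 73 ± 1.03% in E15.5-mSGcm. The sum of the alpha chains was 40.3 ± 0.842 CPM per kilobase in control and 48.3 ± 0.515, 56.2 ± 1.08 and 57.5 ± 1.66 in the 3 media, and ITGB1 over that sum was 0.659 ± 0.0273, 0.644 ± 0.00642, 0.616 ± 0.00348 and 0.485 ± 0.0156. By coding length the same ratio was 0.793, 0.849, 0.861 and 0.543, so the order of control and the chick media turns with the length used, while E15.5-mSGcm is lowest by either. Shares and ratios are given as a description, with no test.

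**Figure D3:**
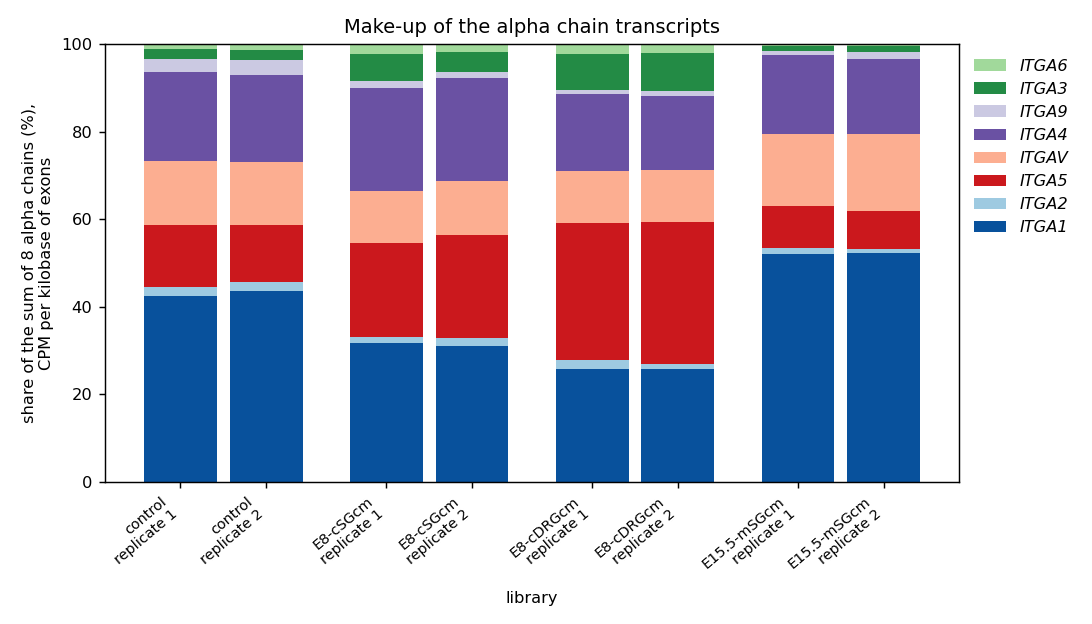
Share of each alpha chain in the sum of the 8 alpha chains (percent, from CPM per kilobase of exons), with 1 stacked bar per library. ITGA1 takes 43% in control, 25.8% in E8-cDRGcm and 52.2% in E15.5-mSGcm, while ITGA5 takes 13.5%, 32% and 9.2%.

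The conditioned media were also compared directly. Between the chick media, ITGA3 and ITGA5 were the members called, both lower in E8-cSGcm than in E8-cDRGcm, where 2.62% of all genes were called lower and 4.87% higher. ITGA3 was 1.83-fold lower (log2 fold change -0.87, SE 0.103, adjusted p = 7.16e-08) and ITGA5 1.65-fold lower (-0.73, SE 0.0602, adjusted p = 6.29e-12). For ITGA6, which rose in both, the difference between the chick media was -0.31 with a 95% confidence interval from -0.67 to 0.05 (adjusted p = 0.195), and for ITGA9, which fell in both, it was 0.24 with an interval from -0.19 to 0.67 (adjusted p = 0.423). ITGB5 differed by 0.22 between them (adjusted p = 0.0155), less than the fold threshold, although it was called against control in E8-cDRGcm and not in E8-cSGcm.

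Between the 2 sympathetic media, chick and mouse, 8 of the 10 members passed the adjusted p, beside 49.8% of all genes, and 5 were called. ITGA1 and ITGAV were higher in E15.5-mSGcm, against 10.2% of all genes, and ITGA3, ITGA5 and ITGA6 lower, against 12.1%. The log2 fold changes were 0.99 for ITGA1 (SE 0.0493, adjusted p = 7.34e-19), 0.75 for ITGAV (SE 0.0572, adjusted p = 1.04e-13), -1.85 for ITGA3 (SE 0.16, adjusted p = 2.35e-11), -1.04 for ITGA5 (SE 0.0746, adjusted p = 2.27e-14) and -2.06 for ITGA6 (SE 0.28, adjusted p = 1.03e-07). The ITGAV difference became 0.46 with the GC content and length correction, under the fold threshold. Against E8-cDRGcm, 13.1% of all genes were called higher in E15.5-mSGcm and 13.1% lower. There ITGA1 was higher by 1.05 (SE 0.0493, adjusted p = 6.30e-20), and ITGA3 differed by -2.72 (SE 0.146, adjusted p = 1.10e-16), ITGA5 by -1.77 (SE 0.0713, adjusted p = 7.13e-22) and ITGA6 by -2.37 (SE 0.269, adjusted p = 1.56e-09). ITGAV differed by 0.58 there (SE 0.0565), a fold change of 1.49 that missed the threshold and passed it, at 0.59, with DESeq2's size factors, while with the GC content and length correction it was 0.40. ITGA9, called lower against control in all 3 media, differed by 0.02 between mouse and chick sympathetic media, with an interval from -0.44 to 0.48.

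**Figure D4:**
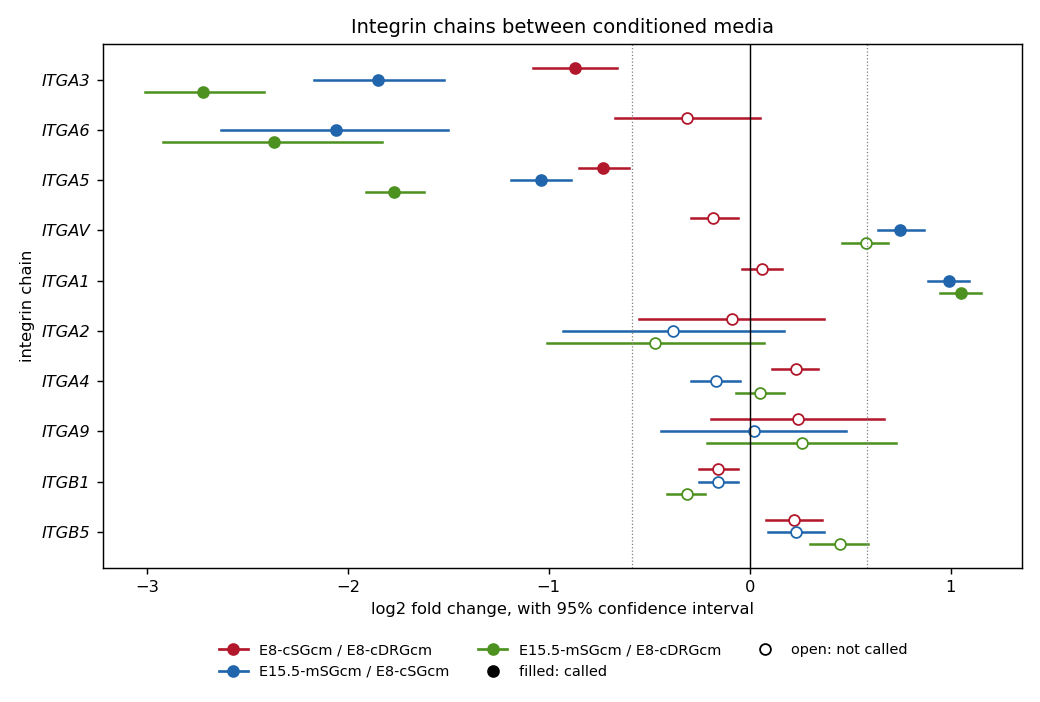
Log2 fold change of each chain between conditioned media, from edgeR, with 95% confidence intervals. Filled points were called and dotted lines mark a fold change of 1.5. ITGA3, ITGA5 and ITGA6 lie to the left in both comparisons with the mouse medium, and ITGA1 to the right.

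Other integrin chains were sparse. Of 16 further chains, 8 were tested, 7 had at least 10 counts in a library, and 3 were at 0 throughout (ITGA8, ITGAD and ITGB6). ITGA7, the laminin-binding muscle chain, had 68 and 67 counts in control, 99 and 114 in E8-cSGcm, 92 and 89 in E8-cDRGcm, and 27 and 24 in E15.5-mSGcm. It rose 1.66-fold in E8-cSGcm (log2 fold change 0.73, SE 0.179, adjusted p = 0.00154) and fell 1.55-fold in E15.5-mSGcm (-0.63, SE 0.242, adjusted p = 0.0372), and it lost the first call with DESeq2 (adjusted p = 0.052). The second was lost with DESeq2 (adjusted p = 0.169), after thinning (adjusted p = 0.179), with the GC content and length correction (-0.47, adjusted p = 0.137), without E15.5-mSGcm replicate 2 (-0.47, adjusted p = 0.286), without E15.5-mSGcm replicate 1 (adjusted p = 0.0504) and without control replicate 1 (adjusted p = 0.18). ITGA7, ITGA3 and ITGA6 thus lay above both controls in the chick media and below both in the mouse medium. Separation from control, in either direction, held for 63.6%, 73.5% and 68.3% of all tested genes in the 3 media. Of these chains, ITGA3 was not called in the mouse medium and ITGA7 was not called in E8-cDRGcm.

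ITGA11, a collagen-binding chain, rose in E8-cDRGcm from 7 and 14 counts to 23 and 28 (log2 fold change 1.34, SE 0.415, adjusted p = 0.00716), a call lost with DESeq2 (adjusted p = 0.122) and without E8-cDRGcm replicate 2 (adjusted p = 0.0667) or control replicate 1 (adjusted p = 0.0925). ITGB8, an alphaV partner, had 19 and 25 counts in control, 12 and 9 in E8-cDRGcm (-0.99, adjusted p = 0.0499) and 20 and 34 in E15.5-mSGcm (1.06, adjusted p = 0.0153). Both calls were lost with DESeq2 (adjusted p = 0.213 and 0.154) and after thinning every library to the smallest total (adjusted p = 0.17 and 0.0974). Of single libraries left out, the first was lost without either library of control or of E8-cDRGcm or without E15.5-mSGcm replicate 2, with adjusted p from 0.0527 to 0.236, and the second without E15.5-mSGcm replicate 2 (0.71, adjusted p = 0.296) or control replicate 1 (0.97, adjusted p = 0.0754). ITGB4, the alpha6 partner, had 8 and 13 counts in control and 2 and 3 in E8-cSGcm (adjusted p = 0.0286), and lost the call without either E8-cSGcm library or control replicate 2. ITGA10, ITGAE and ITGB3 were not called in any medium. ITGA10 had at most 23 counts in a library and ITGB3 at most 26, and ITGAE, at 58 to 153 counts, had log2 fold changes of -0.24, -0.14 and -0.38.

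Among the laminin chains, the ligands of ITGA3 and ITGA6, 1, 3 and 2 of 8 tested genes were called higher in E8-cSGcm, E8-cDRGcm and E15.5-mSGcm. In the same order, 1, 1 and 0 were called lower. For this list and those below, the shares over all tested genes were 4.73%, 9.81% and 6.65% higher and 3.86%, 10.9% and 7.27% lower. LAMC1, the gamma chain of most laminins, had 41 and 34 counts in control, 118 in both E8-cSGcm libraries, 160 and 171 in E8-cDRGcm, and 23 and 24 in E15.5-mSGcm. It rose 3.32-fold in E8-cSGcm (log2 fold change 1.73, SE 0.197, adjusted p = 8.50e-09) and 4.6-fold in E8-cDRGcm (2.20, SE 0.187, adjusted p = 1.71e-12), with 0.10 in the mouse medium (adjusted p = 0.825). LAMA4, at most 47 counts in a library, was called lower in both chick media (-0.91 and -1.37, adjusted p = 0.0261 and 8.92e-04). Both calls were lost without control replicate 2 (adjusted p = 0.359 and 0.0523), the first also without either E8-cSGcm library. Thinning to the smallest library total ended both as well, with log2 fold changes of 0.09 (adjusted p = 0.922), a change of sign, and -0.36 (adjusted p = 0.609). LAMB3, a laminin beta chain, had 2 and 3 counts in control and 11 and 15 in E15.5-mSGcm (adjusted p = 1.44e-04), and 13 and 10 in E8-cDRGcm (adjusted p = 0.00505, 0.0536 without E8-cDRGcm replicate 1, 0.0546 with DESeq2 and 0.051 thinned). LAMA2 rose in E15.5-mSGcm from 13 and 13 counts to 26 and 18 (1.52, adjusted p = 0.00328, but 0.106 without E15.5-mSGcm replicate 1, 0.0534 with DESeq2 and 0.0905 thinned).

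Of 14 listed collagens, the ligands of ITGA1 and ITGA2, 8 were tested. Of these, 1, 2 and 2 were called higher and 0, 0 and 3 lower. The collagen IV genes, COL4A1 to COL4A6, were not among the tested. COL4A2 had 1 count in 1 control library, and the others were at 0 counts in all libraries. COL1A1 fell 3.53-fold in E15.5-mSGcm (log2 fold change -1.82, SE 0.0887, adjusted p = 5.91e-16), from 99.1 and 113 CPM in control to 31.9 and 28.4, while COL1A2, the other chain of collagen I, rose 4.04-fold (2.01, SE 0.204, adjusted p = 3.14e-10), from 3.13 and 3.09 CPM to 10.8 and 14.3. COL6A3, like ITGA6, rose in E8-cSGcm (0.81, SE 0.181, adjusted p = 5.91e-04) and E8-cDRGcm (1.09, SE 0.175, adjusted p = 2.19e-06) and fell in E15.5-mSGcm (-0.86, SE 0.259, adjusted p = 0.00789). The first of these was 0.58, under the fold threshold, without E8-cSGcm replicate 1, and the last had an adjusted p of 0.0852 without E15.5-mSGcm replicate 2. COL6A2 rose in E8-cDRGcm (0.76, SE 0.059, adjusted p = 2.91e-13). COL5A1, at 33 counts in each control library, and COL5A2, at 9 and 12, were called lower (-1.27, adjusted p = 0.00984) and higher (1.13, adjusted p = 0.0453) in E15.5-mSGcm, and each lost its call without E15.5-mSGcm replicate 1 (adjusted p = 0.103 and 0.149) and without control replicate 1 (adjusted p = 0.0519 and 0.162). COL5A2 lost it without 7 of the 8 libraries, and with DESeq2 neither was called (adjusted p = 0.0748 and 0.222).

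Of 10 tested fibronectin, RGD and other glycoprotein ligands, 3, 2 and 2 were called higher and 1 lower in each medium. FN1, the fibronectin held by ITGA5, was not called: it stood at 80.9 and 91.9 CPM in control, 91.3 and 75.2 in E8-cSGcm, 93.6 and 94.1 in E8-cDRGcm, and 56.5 and 64.9 in E15.5-mSGcm, with log2 fold changes of -0.06 (adjusted p = 0.627), 0.12 (adjusted p = 0.237) and -0.51 (adjusted p = 8.41e-05). TNC, the tenascin-C bound by ITGA9, fell in both chick media and rose in the mouse medium. It had 663 and 723 counts in control (50.7 and 47.5 CPM), 276 and 254 in E8-cSGcm (22.1 and 17.8 CPM), 173 and 150 in E8-cDRGcm (12.9 and 11 CPM), and 1163 and 1480 in E15.5-mSGcm (149 and 169 CPM). No groups overlapped, and the log2 fold changes were -1.30 (SE 0.0946, adjusted p = 5.38e-13), -2.04 (SE 0.104, adjusted p = 7.82e-18) and 1.70 (SE 0.0766, adjusted p = 5.36e-19).

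VCAM1, the alpha4 and alpha9 ligand, had 1 and 0 counts in control, 0 in both E8-cSGcm libraries, 0 and 7 in E8-cDRGcm, and 59 and 67 in E15.5-mSGcm (adjusted p = 2.97e-11). NPNT, the nephronectin ligand of RGD-binding integrins, had 4 and 3 counts in control and 60 and 82 in E8-cDRGcm (log2 fold change 4.35, SE 0.396, adjusted p = 1.07e-11), and 13 and 12 in E8-cSGcm (1.87, adjusted p = 0.00984), a call lost after thinning (adjusted p = 0.145) and without control replicate 2 (adjusted p = 0.111) or E8-cSGcm replicate 1 (adjusted p = 0.0539). TGFB1, whose latent form binds alphaV integrins, rose in E8-cDRGcm (0.87, SE 0.0498, adjusted p = 3.50e-17), and THBS1, thrombospondin-1, in E8-cSGcm (0.73, SE 0.146, adjusted p = 1.48e-04). FBN1, fibrillin-1, was called lower in E15.5-mSGcm (-0.69, adjusted p = 0.0289), and not with DESeq2 (adjusted p = 0.184), after thinning (adjusted p = 0.106), or without E15.5-mSGcm replicate 2 (adjusted p = 0.327) or control replicate 2 (adjusted p = 0.173).

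**Figure D5:**
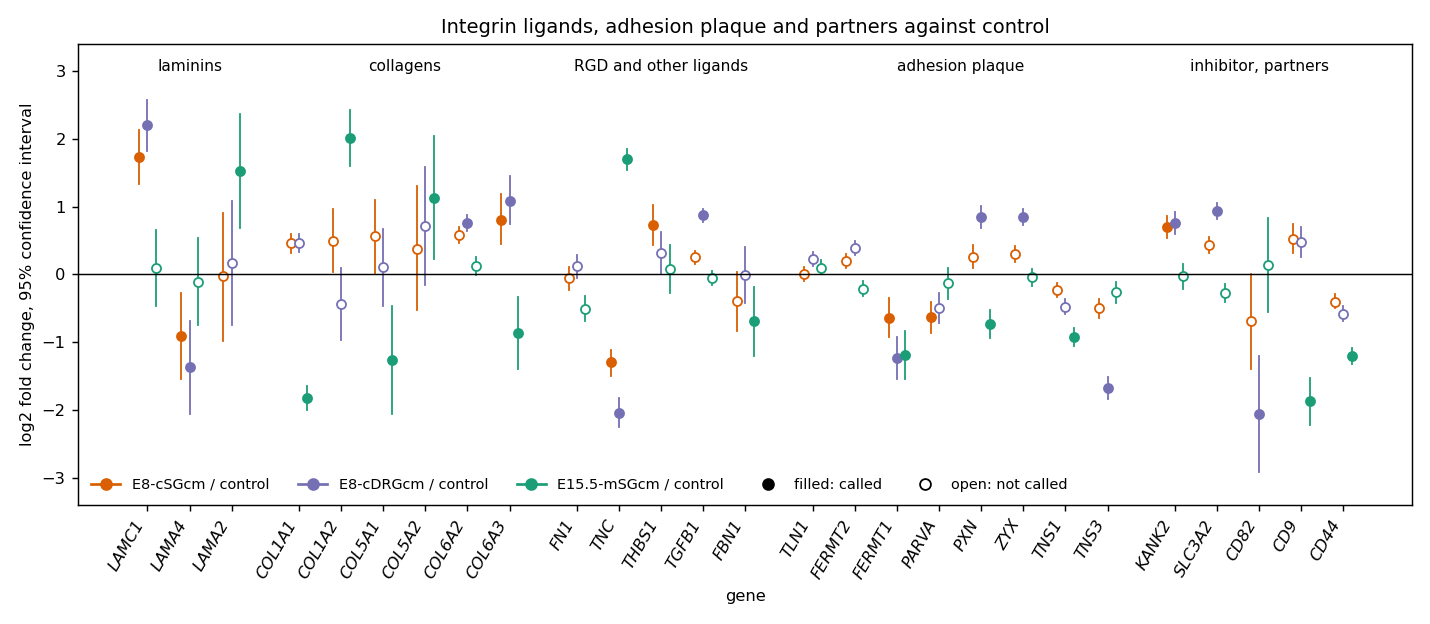
Log2 fold change against control, with 95% confidence intervals, 3 points per gene for the 3 media. Genes are those named from the ligand, adhesion plaque, inhibitor and membrane partner lists with at least 10 counts over both controls. Filled points were called. LAMC1 rises in both chick media, and TNC falls there and rises in the mouse medium.

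On the adhesion plaque list, 0, 2 and 0 of 25 tested genes were called higher and 2, 2 and 3 lower. Over all tested genes the shares were 4.73%, 9.81% and 6.65% higher, and 3.86%, 10.9% and 7.27% lower. TLN1, the main talin, stood at 198 and 201 CPM in control and between 195 and 237 CPM in the media, with log2 fold changes of 0.01 (adjusted p = 0.952), 0.23 (adjusted p = 1.89e-04) and 0.10 (adjusted p = 0.118). FERMT2, kindlin-2, had 0.20, 0.39 and -0.21, none called. FERMT1, kindlin-1, fell in all 3 media, from 200 and 190 counts in control to 101 and 137, 75 and 84, and 47 and 53 (-0.64, -1.23 and -1.19, adjusted p = 6.57e-04, 1.99e-08 and 7.00e-07), and its value in E8-cSGcm was under the fold threshold without control replicate 1 (-0.49) or E8-cSGcm replicate 1 (-0.52). PXN, paxillin, rose in E8-cDRGcm (0.85, SE 0.0786, adjusted p = 1.85e-11) and fell in E15.5-mSGcm (-0.73, SE 0.102, adjusted p = 3.80e-07), where the GC content and length correction gave -0.56. ZYX, zyxin, rose in E8-cDRGcm (0.84, SE 0.0557, adjusted p = 1.89e-15), where the tensin TNS3 fell (-1.67, SE 0.0811, adjusted p = 2.53e-19). TNS1 fell in E15.5-mSGcm (-0.92, SE 0.0625, adjusted p = 9.12e-15), and PARVA, alpha-parvin, in E8-cSGcm (-0.63, SE 0.111, adjusted p = 2.38e-05, and -0.57 without E8-cSGcm replicate 2).

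Of 5 tested genes on the inhibitor list, KANK2, which binds talin and loosens its hold on actin, rose in both chick media. Its log2 fold changes were 0.70 in E8-cSGcm (SE 0.08, adjusted p = 9.14e-09) and 0.76 in E8-cDRGcm (SE 0.0795, adjusted p = 3.73e-10). None of the 5 was called in E15.5-mSGcm. The list name does not say that KANK2 inhibits integrins in these cells, which was not tested. Of 10 tested membrane partners, SLC3A2, the CD98 heavy chain that binds beta1 tails, rose in E8-cDRGcm (0.94, SE 0.0567, adjusted p = 1.47e-16), and the tetraspanin CD82 fell there from 25 and 37 counts to 4 and 10 (-2.06, adjusted p = 8.84e-05). In E15.5-mSGcm the tetraspanin CD9 fell 3.66-fold (-1.87, SE 0.17, adjusted p = 2.05e-11), from 14.8 and 14.5 CPM to 3.84 and 4.11, and CD44, the hyaluronan receptor, 2.3-fold (-1.20, SE 0.0578, adjusted p = 3.58e-19). No membrane partner was called in E8-cSGcm.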

How the data were processed

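RNA was sequenced from 8 libraries of IGR-N91 cells (50 ng of RNA, a stranded total RNA kit, single reads of 75 bp). The authors deposited 1 table of raw read counts per Ensembl gene, without normalization or filter; its columns were assigned to groups by their names. The processing notes list bcl2fastq 2.17.1.14, cutadapt 1.9.1, TopHat2 2.1.0 and HTSeq 0.11.3. The study's methods name hg19 and the notes hg38, so the build is uncertain; counts do not depend on the coordinates printed. The strand setting of the counting is not given in the sources used here, so reads of overlapping antisense genes may not be separated.

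Symbols (58611 of 60676 identifiers), exon lengths, GC content and overlaps came from GENCODE release 44 on GRCh37, and positions and promoters from RefSeq on GRCh38.p14. Genes were filtered by filterByExpr, scaled by TMM and tested in edgeR 4.0.16 (robust quasi-likelihood, 1 model of all 8 libraries, no block) in R 4.3.3, with Benjamini-Hochberg adjustment over 16680 genes. Calls required both a 1.5-fold difference and an adjusted p below 0.05. The fit was tested on simulated counts with known changes. Alternatives were DESeq2's size factors (RLE), DESeq2 1.42.0, other count filters, fits of the compared libraries alone, GC content and length correction (splines, 5 degrees of freedom each), a replicate block, thinning to 7930765 counts, and leaving out each library. Same-numbered libraries showed no shared shift, and whether they were made together is not stated. No 2 libraries agreed within sampling noise (chi-square per gene 1.78 to 3.64). TMM factors ran from 0.9774 to 1.023.

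Text names all 10 members; other integrin chains with at least 10 counts in a library; of each list, per medium, at most 2 called genes with the largest changes in each direction and both libraries beyond both controls; and FN1, LAMC1, TLN1 and FERMT2. Members and lists (laminins, collagens, glycoprotein ligands, adhesion plaque, inhibitors, membrane partners, cell type markers) were chosen with earlier results of these data known. PECAM1 had no matched row. Outside the naming rule, ACTN1, ACTN4 and the collagen IV genes are named only to describe rows at or near 0 counts. Figures were drawn with matplotlib 3.10.9.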

Additional observations from a re-analysis of the deposited data

Results flagged for a closer look

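ITGA6 was called higher in both chick media and lower in E15.5-mSGcm against the same controls, and the media themselves differed by -2.06 on the log2 scale between E15.5-mSGcm and E8-cSGcm and by -2.37 between E15.5-mSGcm and E8-cDRGcm. Of the other integrin chains, ITGA7 differed in the same way between E15.5-mSGcm and E8-cSGcm (-1.37), and ITGB8 was called lower in E8-cDRGcm and higher in E15.5-mSGcm, with 2.05 between them. Both ITGB8 calls against control were lost with DESeq2 (adjusted p = 0.213 and 0.154) and after thinning (adjusted p = 0.17 and 0.0974) as well as without single libraries, and both ITGA7 calls against control were lost with DESeq2 (adjusted p = 0.052 and 0.169).

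Among the ligands, TNC was called lower in the chick media and higher in the mouse medium, with differences of 3.00 from E8-cSGcm and 3.73 from E8-cDRGcm. COL6A3 was called in the opposite directions, with -1.68 and -1.95. Paxillin (PXN) was called higher in E8-cDRGcm and lower in E15.5-mSGcm, with -1.58 between them. All 9 differences were called in edgeR, and what lies behind them was not tested.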

How the results depend on the processing

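Of 1080 values of the members under alternatives, 1020 kept their direction and side of the threshold, 7 lost a call, 28 gained one (20 by the adjusted p alone) and 25 changed sign, none of them called. By the adjusted p alone, members called higher and lower were 5 and 3 in E8-cSGcm and 6 higher in E8-cDRGcm, 2 and 4 in E8-cSGcm against E8-cDRGcm, 5 lower in E15.5-mSGcm against E8-cSGcm and 3 higher against E8-cDRGcm, and pathway list genes 18 and 11, 27 and 14, and 13 and 23 in the 3 media, against 7 and 5, 12 and 6, and 7 and 10. With GC content and length correction, alone or with the replicate block, 1 member was called higher in E15.5-mSGcm against control and 1 against E8-cSGcm, since ITGAV fell under the fold threshold, and 3 members lower in place of 2 in E15.5-mSGcm against control, since ITGA2 passed (-0.61, adjusted p = 0.0492, and 0.0488 with the block). RLE size factors and thinning each called 2 members higher in E15.5-mSGcm against E8-cDRGcm. DESeq2 called 3 list genes lower in E8-cSGcm and 4 higher in E15.5-mSGcm, thinning 3 lower in E8-cSGcm, and the filter at 10 counts in every library 2 higher in E15.5-mSGcm, where fewer genes were tested. The cause of the other moves was not tested.

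Leaving out 1 library gave 0 to 2 members lower in E15.5-mSGcm against control (0 without E15.5-mSGcm replicate 1, 1 without control replicate 2) and 1 to 3 higher against E8-cDRGcm (2 without E8-cDRGcm replicate 1, 3 without E15.5-mSGcm replicate 1), and 2 to 5 list genes lower in E8-cSGcm. With 1 library left in a group, that library was taken to vary like the others. Of 47 calls of list genes, 26 held under all alternatives with a value and 19 were lost without some library.

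The sign changes came mostly with single libraries left out, over ranges of -0.30 to 0.04 (ITGA2 in E8-cSGcm), -0.56 to 0.38 (ITGA2 in E8-cDRGcm), -0.49 to 0.45 (ITGA2 between the chick media), -0.88 to 0.08 (ITGA2, E15.5-mSGcm against E8-cDRGcm), -0.00 to 0.02 (ITGAV in E8-cSGcm), -0.51 to 0.37 (ITGA9, E15.5-mSGcm against E8-cSGcm), -0.27 to 0.61 (ITGA9 against E8-cDRGcm) and -0.01 to 0.11 (ITGA4 against E8-cDRGcm). The others were ITGAV in E8-cSGcm (-0.00 with RLE, DESeq2 or the compared libraries alone), ITGA5 (0.03) and ITGB1 (-0.10) in E15.5-mSGcm with GC correction, with or without the block, ITGA9 against E8-cSGcm (-0.04 with the filter at 1 count and with block and GC correction, -0.03 with GC correction, -0.23 thinned) and ITGA4 against E8-cDRGcm (-0.01 with the filter at 1 count, -0.05 with GC correction, with or without the block).

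The replicate block changed no call of a member. It ended the calls of ITGB8 in E8-cDRGcm (adjusted p = 0.054) and COL5A2 in E15.5-mSGcm (adjusted p = 0.0514). Correlations of same-numbered libraries ran from -0.0437 to 0.042. These values show no shared shift, and they cannot tell whether same-numbered libraries were made together. Shares and per-kilobase levels moved with the gene length used, the ITGA5 to ITGAV ratio in control being 0.934 by exons, 0.568 by the longest transcript and 0.367 by coding length. Depth limits ITGA2, ITGA6 and ITGA9, the members with the fewest counts, most of all in E15.5-mSGcm.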
